A study of Homo sapiens with 9 samples.

Results

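The genes described here belong to the inflammasome and to pyroptosis, and 10 of them were followed across MCF10A cells that carried human deltaNp63beta, human deltaNp63alpha or an empty vector. They were the sensor genes NLRP3, NLRP1 and AIM2, the adaptor gene PYCARD, the caspase genes CASP1, CASP4 and CASP5, and the gasdermin genes GSDMC, GSDMD and GSDME. The 10 genes were chosen by their role in the pathway, with their fold changes in the same libraries already known, and were found by matching the Ensembl gene IDs of the files to symbols. All 10 had a row among the 41857 gene IDs of each library. MCF10A is a non-tumorigenic mammary epithelial cell line, and deltaNp63alpha and deltaNp63beta are forms of the transcription factor p63 that lack the N-terminal transactivation domain, have the same DNA-binding domain and have different C-terminal ends. There were 3 biological replicates of each group, and all 9 cultures, those with the vector included, were given 500 ng/mL doxycycline for 24 h. The labels give the genotype of every group as WT, and neither the promoter behind the transgenes nor whether a line was 1 clone is given in the sources used here.

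Inflammasomes are protein complexes that form when a sensor meets microbial products or signs of cell damage. The sensors NLRP3, NLRP1 and AIM2 recruit caspase-1, in most cases through the adaptor ASC that PYCARD encodes. Caspase-1 matures interleukin-1 beta and interleukin-18 and cleaves gasdermin D, whose N-terminal part forms pores in the plasma membrane, and the lytic death that follows is called pyroptosis. Caspase-4 and caspase-5 bind bacterial lipopolysaccharide directly and also cleave gasdermin D. Gasdermin E is another pore former of the same family. In epidermal keratinocytes, which depend on p63 as mammary basal cells do, NLRP1 is the best known sensor.

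The RefSeq table of promoters (GRCh38.p14) held 6 of the 10 genes, NLRP3, AIM2, PYCARD, CASP4, CASP5 and GSDME. The 250 bases before the annotated start are shown for NLRP3, the gene with the widest range between groups, and for the neighbouring caspase genes CASP4 and CASP5, of which the first was abundant in all 9 libraries and the other was listed at 0 in all 9. The stretches are written 5′ to 3′ on the strand of the gene, at chr1:247415923-247416172 (plus strand), chr11:104968575-104968824 (minus strand) and chr11:105023169-105023418 (minus strand). Capitals mark matches to the searched motifs.
NLRP3: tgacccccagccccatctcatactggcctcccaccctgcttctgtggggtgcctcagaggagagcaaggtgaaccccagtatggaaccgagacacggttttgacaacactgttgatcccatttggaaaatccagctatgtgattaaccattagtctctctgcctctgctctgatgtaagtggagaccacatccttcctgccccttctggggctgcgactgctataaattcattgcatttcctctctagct
CASP4: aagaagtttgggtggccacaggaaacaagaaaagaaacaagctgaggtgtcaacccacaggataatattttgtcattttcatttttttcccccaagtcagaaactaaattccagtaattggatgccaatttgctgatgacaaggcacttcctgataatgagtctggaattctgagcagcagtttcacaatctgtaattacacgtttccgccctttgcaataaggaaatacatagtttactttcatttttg
CASP5: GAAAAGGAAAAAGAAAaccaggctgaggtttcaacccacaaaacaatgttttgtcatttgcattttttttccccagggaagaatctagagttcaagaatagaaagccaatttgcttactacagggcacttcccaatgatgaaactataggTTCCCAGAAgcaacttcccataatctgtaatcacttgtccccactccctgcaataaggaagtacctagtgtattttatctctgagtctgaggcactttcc

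In a global alignment the CASP4 and CASP5 stretches were identical at 175 of 269 aligned columns (65.1%), against 37.3% to 48.5% for the other 14 pairs of the 6 promoters. Both strands were searched for the core of the interferon-stimulated response element (GAAA, any 2 bases, GAAA), the gamma-activated site (TTCNNNGAA), the AP-1 site (TGANTCA) and the p53 family half-site. CASP5 had 2 overlapping matches to the interferon element and 1 to the gamma-activated site, and AIM2 had 1 to the interferon element and 1 to the AP-1 site. The other 4 promoters had none of the motifs in this window, and no p53 family half-site was found in any of the 6. Of 35116 promoters of the same length, 3.02% held the interferon element, 6.57% the gamma-activated site, 6.57% the AP-1 site and 5.57% the half-site. With so low a share, finding no half-site in 6 promoters was likely for any genes and says nothing about p63 binding. GC content was 76.4% in the GSDME stretch and 71.2% in that of PYCARD, against 51.6% for NLRP3, 40.4% for CASP5 and 38.0% for CASP4, and the median of all promoters was 58.0%.

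The deposited values are normalized estimated counts per gene, and each library summed to between 22483140 and 23213870. The normalization brings these sums close together, so they do not give the depth. The most common low value of a library, taken as its step, was 0.9222 to 1.1089. The sums divided by the step were about 20340000 to 24380000, an estimate of relative depth from values of which only a part were whole steps. The TP63 value is per gene, so RNA of the transgene and of the cells' own TP63 gene is not told apart. It lay between 4183 and 6719 in the deltaNp63beta libraries and between 4426 and 6983 in the deltaNp63alpha libraries. In the vector libraries TP63 lay between 259.3 and 332.0. Of the markers of basal epithelial cells, all 7 were tested and their summed level was between 343376 and 355388 with deltaNp63beta, between 251773 and 268011 with deltaNp63alpha and between 153528 and 158979 with vector. NLRP3, AIM2 and CASP5 are best known from myeloid cells. Of 12 myeloid markers, AIF1 and TYROBP were listed at 0 in all 9 libraries, PTPRC did not exceed 4.22, and the sum was between 1250 and 1375 with deltaNp63beta, between 1285 and 1648 with deltaNp63alpha and between 1876 and 2090 with vector. Only 5 of the 12, CD14, CD68, ITGB2, CSF1R and LAPTM5, passed the filter on low values. The sum of 4 lymphoid markers did not exceed 5.02 in any library. Endothelial markers summed to between 108.7 and 125.0 with deltaNp63beta, 165.7 and 170.2 with deltaNp63alpha and 201.4 and 274.0 with vector. Fibroblast markers summed to between 12413 and 13484 with deltaNp63beta, 7718 and 7860 with deltaNp63alpha and 10561 and 10906 with vector. Most of that sum was FBLN1. Against vector, FBLN1 was called higher with deltaNp63beta (0.43 ± 0.04, limma adjusted p = 6.89e-06), as was COL1A1 (0.52 ± 0.17, limma adjusted p = 0.0286). DCN fell with deltaNp63beta to 165.9 ± 29.3, against 1210.5 ± 2.23 with vector (-2.87 ± 0.11, limma adjusted p = 8.4e-09). LUM and PDGFRB were not called. General epithelial markers summed to between 18929 and 20818 with deltaNp63beta, 13148 and 14247 with deltaNp63alpha and 12904 and 13171 with vector. Most of that sum was KRT8 and KRT18. Against vector, CDH1 and EPCAM were called higher with both isoforms. KRT18 was called higher with deltaNp63beta only, and KRT8 was called only with deltaNp63alpha, where it was lower. The lists did not move as 1. Of the basal markers, LAMB3 alone was called lower with deltaNp63beta than with vector. Of the myeloid markers, CD14 and LAPTM5 were called higher and CD68, ITGB2 and CSF1R lower with deltaNp63beta. CD14 was at 172.5, 119.1 and 219.4 in the deltaNp63beta libraries and between 8.08 and 30.2 in the other 6. The part of these markers in the results was not tested. With bulk RNA, fewer cells that express a gene and less RNA of it per cell cannot be told apart.

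Of the 10 genes, 6 reached 10 in 3 or more libraries and entered the fit of 15108 genes. They were NLRP3, NLRP1, CASP1, CASP4, GSDMD and GSDME, and AIM2, PYCARD, CASP5 and GSDMC fell below the filter. A gene is named as called where limma gave a Benjamini-Hochberg adjusted p under 0.05 over all genes tested. With deltaNp63beta against vector, 4 of the 6 were called higher and 2 lower, where 21.8% and 19.5% of all genes were. With deltaNp63alpha against vector, 3 were called higher and 1 lower, where 8.13% and 6.37% of all genes were. With deltaNp63beta against deltaNp63alpha, 3 were called higher and 2 lower, where 17.4% and 15.5% of all genes were. Because the genes were listed with these contrasts known, the counts describe them and are no evidence about the pathway. The comparisons with vector share the vector libraries.

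**Figure D1:**
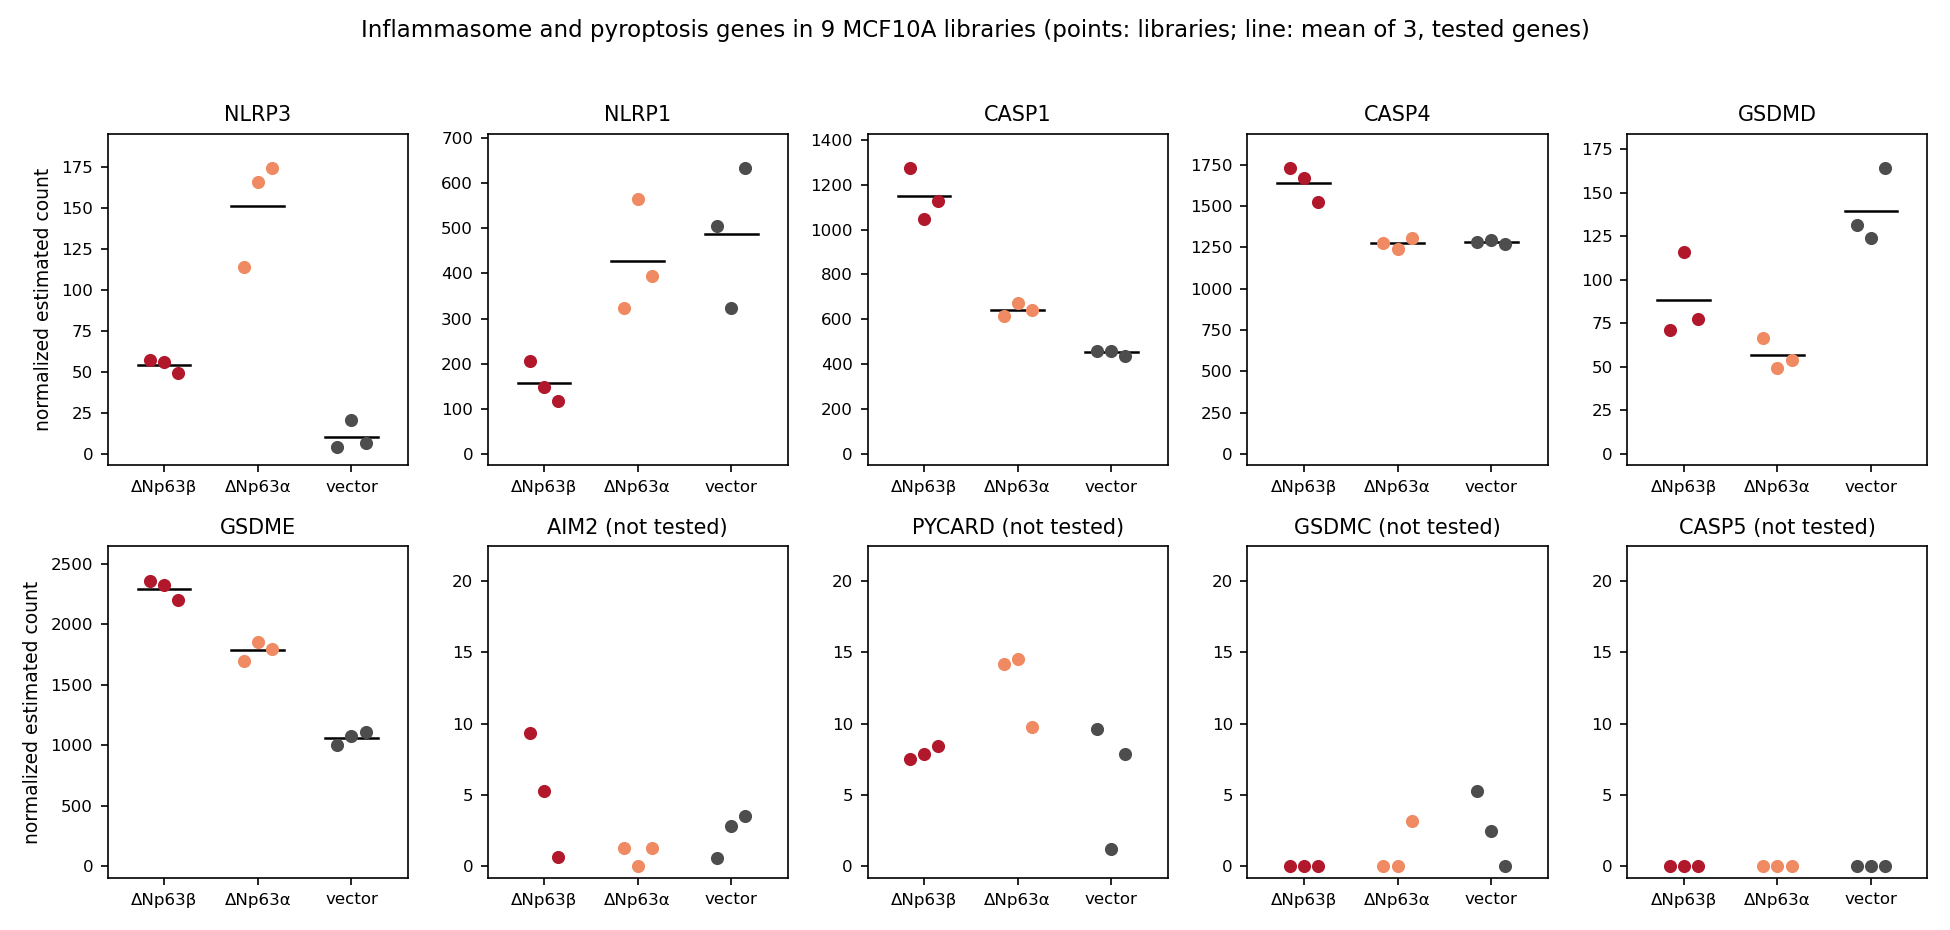
Normalized estimated counts (y axis, linear from 0, with a different range in each tested gene and a shared one in the untested genes) of the 10 genes in the deltaNp63beta, deltaNp63alpha and vector libraries (x axis); each point is 1 library and each line the mean of 3, drawn for the 6 tested genes. NLRP3 was at 114 to 175 in the deltaNp63alpha libraries and at 20.4 or lower in the vector libraries, whereas CASP1 and GSDME were highest with deltaNp63beta.

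NLRP3, the sensor of potassium efflux and other signs of membrane damage, was higher with both isoforms and highest with deltaNp63alpha (GRCh38 chromosome 1, 247416156 to 247449108, plus strand, protein coding). Its value was 57.3, 56.2 and 49.5 in the deltaNp63beta libraries, 114.4, 165.9 and 174.6 in the deltaNp63alpha libraries and 4.05, 20.4 and 6.81 in the vector libraries. No 2 groups overlapped, and the vector libraries differed among themselves by more than those of deltaNp63beta. The mean was 54.3 ± 4.24 with deltaNp63beta, 151.7 ± 32.5 with deltaNp63alpha and 10.4 ± 8.78 with vector (SD, n = 3 each). On the log2(value + 1) scale the difference from vector was 2.55 ± 0.44 (SE) for deltaNp63beta and 3.99 ± 0.44 for deltaNp63alpha, and both were called under all 17 alternative settings. Without vector replicate 1 they were 2.09 for deltaNp63beta and 3.54 for deltaNp63alpha, without vector replicate 2, the highest of its group, 3.14 and 4.58, and without vector replicate 3 they were 2.41 and 3.85. The difference between deltaNp63beta and deltaNp63alpha was -1.44 ± 0.44. It was called, but the call was lost when deltaNp63alpha replicate 2, deltaNp63alpha replicate 3 or any 1 of the deltaNp63beta libraries was left out (adjusted p between 0.0532 and 0.0879), nor without trend and robust moderation (adjusted p = 0.0602). NLRP3 passed the filter through 7 of the 9 libraries, 6 of them with an isoform.

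NLRP1, the sensor gene with the higher level in vector cells, was lower with deltaNp63beta and not called with deltaNp63alpha (chromosome 17, 5499427 to 5619424, minus strand). Its value was 205.8, 149.3 and 117.4 in the deltaNp63beta libraries, 323.0, 565.5 and 393.8 in the deltaNp63alpha libraries and 504.6, 322.7 and 634.0 in the vector libraries. The deltaNp63beta libraries lay below all others, and those of deltaNp63alpha and vector overlapped. The log2 difference from vector was -1.61 ± 0.28 for deltaNp63beta and -0.17 ± 0.28 for deltaNp63alpha, and between deltaNp63beta and deltaNp63alpha it was -1.43 ± 0.28. The differences that involve deltaNp63beta were called under every alternative run. NLRP1 overlaps AC055839.1 on the same strand, so fragments could be divided between them. NLRP3 and NLRP1 thus stood in different orders, NLRP3 lowest with vector and NLRP1 lowest with deltaNp63beta.

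AIM2, the sensor of cytosolic double-stranded DNA (chromosome 1, 159062484 to 159147096, minus strand), had little RNA in any group. It was at 9.32, 5.27 and 0.63 in the deltaNp63beta libraries, at 1.27, 0 and 1.31 in the deltaNp63alpha libraries and at 0.59, 2.83 and 3.53 in the vector libraries. The deltaNp63beta and vector values overlapped. Fitted with no filter on low values, AIM2 was not called in any comparison (limma adjusted p between 0.245 and 0.658).

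PYCARD, which encodes the adaptor ASC (chromosome 16, 31201485 to 31203450, minus strand), was also near the lower limit. It was at 7.5, 7.86 and 8.42 in the deltaNp63beta libraries, at 14.2, 14.5 and 9.76 in the deltaNp63alpha libraries and at 9.59, 1.19 and 7.84 in the vector libraries. Every deltaNp63alpha library lay above every other library, narrowly so for replicate 3 at 9.76 against vector replicate 1 at 9.59. With no filter the log2 difference between deltaNp63alpha and vector was 1.21 ± 0.58 and was not called (limma adjusted p = 0.296). In the annotation PYCARD-AS1 runs over the gene on the opposite strand, and 56.3% of the 31-base words of the PYCARD transcripts also occur in it. PYCARD-AS1 had no row among the gene IDs, so its level could not be read. Whether the counting used strand is not given in the sources used here.

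CASP1, the effector caspase of inflammasomes, was higher with both isoforms and more so with deltaNp63beta (chromosome 11, 105025443 to 105035250, minus strand). Its value was 1275, 1047 and 1127 in the deltaNp63beta libraries, 616.4, 670.8 and 643.6 in the deltaNp63alpha libraries and 459.8, 460.7 and 436.7 in the vector libraries. The 3 groups were separate. The mean was 1149 ± 116 with deltaNp63beta, 644 ± 27.2 with deltaNp63alpha and 452 ± 13.6 with vector (SD, n = 3 each). The log2 difference from vector was 1.34 ± 0.08 for deltaNp63beta and 0.51 ± 0.08 for deltaNp63alpha, and between deltaNp63beta and deltaNp63alpha it was 0.83 ± 0.08. All 3 were called under every alternative run, and for deltaNp63beta against vector the value lay between 1.26 and 1.40. CARD16, which encodes a short relative of caspase-1 with only the recruitment domain, holds 303 of the 353 shared 31-base words of CASP1, of 3954 in all. CARD16 was at 216.7 ± 40.1 with deltaNp63beta, 146.4 ± 14.0 with deltaNp63alpha and 173.3 ± 22.0 with vector, so CASP1 had the larger value in every group.

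CASP4, a caspase for intracellular lipopolysaccharide, was higher with deltaNp63beta only among the comparisons with vector (chromosome 11, 104942866 to 104969436, minus strand). Its value was 1730, 1671 and 1523 in the deltaNp63beta libraries, 1278, 1238 and 1304 in the deltaNp63alpha libraries and 1283, 1295 and 1273 in the vector libraries. The deltaNp63beta libraries lay above all others, and the deltaNp63alpha libraries enclosed the vector libraries. The log2 difference from vector was 0.35 ± 0.06 for deltaNp63beta and -0.01 ± 0.06 for deltaNp63alpha, and that between deltaNp63beta and deltaNp63alpha, itself called, was 0.36 ± 0.06. CASP5, its relative next to it in the genome (chromosome 11, 104994235 to 105023168, minus strand), was listed at 0 in all 9 libraries. Their transcripts have 45 of the 31-base words in common, 2.65% of those of CASP5, so most of CASP5 is distinct from CASP4 in sequence.

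GSDMD, the pore former cleaved by caspase-1, caspase-4 and caspase-5, was lower with both isoforms (chromosome 8, 143553207 to 143563062, plus strand). Its value was 71.2, 115.7 and 77.2 in the deltaNp63beta libraries, 66.7, 49.1 and 53.6 in the deltaNp63alpha libraries and 131.1, 123.7 and 164.1 in the vector libraries. Both isoform groups lay below vector, and deltaNp63beta replicate 2 came close to it. The log2 difference from vector was -0.68 ± 0.22 for deltaNp63beta and -1.29 ± 0.22 for deltaNp63alpha. The first was called in the fit of all libraries but lost the call when replicate 1 or replicate 3 of either group was left out (adjusted p between 0.0525 and 0.107). The second was called under every alternative run. The difference between deltaNp63beta and deltaNp63alpha was 0.61 ± 0.22 and was not called.

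GSDME, which encodes gasdermin E, was higher with both isoforms (chromosome 7, 24698351 to 24758113, minus strand). Its value was 2359, 2321 and 2202 in the deltaNp63beta libraries, 1700, 1857 and 1792 in the deltaNp63alpha libraries and 999.3, 1074 and 1112 in the vector libraries. The 3 groups did not overlap, and the mean was 2294 ± 82.2 with deltaNp63beta, 1783 ± 78.9 with deltaNp63alpha and 1062 ± 57.5 with vector (SD, n = 3 each). The log2 difference from vector was 1.11 ± 0.06 for deltaNp63beta and 0.75 ± 0.06 for deltaNp63alpha, and between deltaNp63beta and deltaNp63alpha it was 0.36 ± 0.06. All 3 were called under every alternative run. GSDMC, another gasdermin gene (chromosome 8, 129748196 to 129786888, minus strand), was listed at 0 in 6 of the 9 libraries and was at 3.16 in deltaNp63alpha replicate 3 and at 5.29 and 2.45 in vector replicates 1 and 2.

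**Figure D2:**
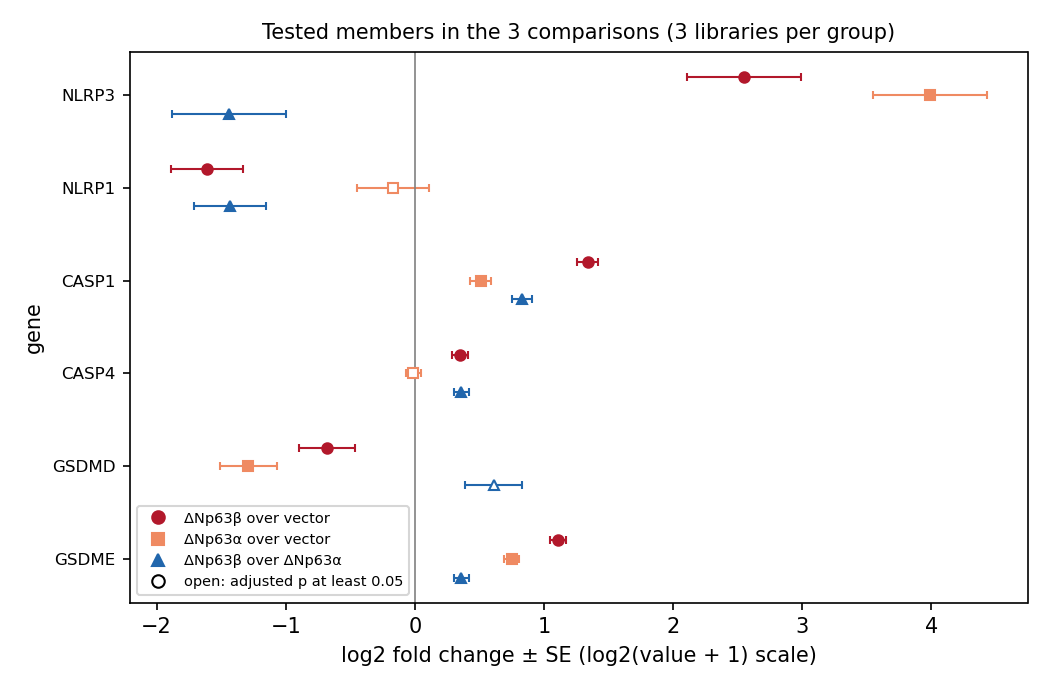
Log2 fold changes on the log2(value + 1) scale (x axis, bars are SE) of the 6 tested genes (y axis) for deltaNp63beta over vector, deltaNp63alpha over vector and deltaNp63beta over deltaNp63alpha, 3 libraries a group; open symbols were not called. NLRP3 had the largest value of the 6, 3.99 for deltaNp63alpha over vector, and GSDMD was below 0 with both isoforms while GSDME was above 0.

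Per kilobase of the longest coding transcript, the levels of the genes spanned a wide range, and the order changed with the isoform. With deltaNp63beta, GSDME had 885.0 ± 31.7, CASP4 760.6 ± 49.6 and CASP1 574.4 ± 57.8 per kilobase (SD, n = 3). GSDMD followed at 35.3 ± 9.68 and NLRP1 at 28.9 ± 8.22, which did not differ beyond their spread, and NLRP3 was at 12.6 ± 0.982. With deltaNp63alpha, GSDME was at 687.8 ± 30.5, CASP4 at 590.1 ± 15.3 and CASP1 at 321.6 ± 13.6, then NLRP1 at 78.5 ± 22.9, NLRP3 at 35.1 ± 7.53 and GSDMD at 22.6 ± 3.67. With vector, CASP4 led at 594.8 ± 5.11, before GSDME at 409.6 ± 22.2 and CASP1 at 226.1 ± 6.79. NLRP1 at 89.5 ± 28.7 and GSDMD at 55.9 ± 8.61 overlapped within 1 SD in the vector libraries, as did PYCARD at 5.46 ± 3.89 and NLRP3 at 2.42 ± 2.03. PYCARD was at 6.97 ± 0.407 with deltaNp63beta and 11.3 ± 2.34 with deltaNp63alpha, so in every group its listed level was far below that of CASP1. The limit given above for PYCARD, sequence shared with PYCARD-AS1, holds for these levels too.

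The genes whose profile over the 9 libraries was closest were sought for the 3 tested members with the widest range between group means, NLRP3, NLRP1 and CASP1. Likeness was the root mean square difference between log2(value + 1) profiles, each centred on its own mean, over 14061 other genes with a symbol. Closest to NLRP3 were ARHGAP25, a GTPase-activating protein gene (0.54), PADI3, a deiminase gene of hair follicle and epidermis (0.80), and MRGPRX3, a G protein-coupled receptor gene (0.83). ARHGAP25 was at 96.6 ± 17.1 with deltaNp63beta, 136.9 ± 22.0 with deltaNp63alpha and 9.46 ± 3.51 with vector. Closest to NLRP1 were MN1 (0.21), APLP1 (0.25) and NALF1 (0.25), and APLP1 was at 144.9 ± 25.3 with deltaNp63beta, 428.5 ± 89.3 with deltaNp63alpha and 401.4 ± 59.6 with vector. Among the genes closest to CASP1 were DSP, which encodes desmoplakin (0.10), and ERMP1, an endoplasmic reticulum peptidase gene (0.11). DSP was at 22212 ± 1369 with deltaNp63beta, 13639 ± 294 with deltaNp63alpha and 9902 ± 94.8 with vector.

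The other genes of the pathway were taken from 7 lists with 86 entries, of which 85 had a row and 65 were tested. With deltaNp63beta against vector, 23 rose (35.4%) and 8 fell (12.3%), where 21.8% and 19.5% of all genes did, and the median log2 difference was 0.07 where that of all genes was 0.00. The 8 that fell were 5 without vector replicate 3. With deltaNp63alpha against vector, 11 rose (16.9%) and 6 fell (9.23%), where 8.13% and 6.37% of all genes did, and the median was 0.03 where that of all genes was -0.01. The 6 that fell were 3 without deltaNp63alpha replicate 2 or without vector replicate 1. With deltaNp63beta against deltaNp63alpha, 19 were higher (29.2%) and 9 lower (13.8%), where 17.4% and 15.5% of all genes were, and the median was 0.11 where that of all genes was 0.00. The shares are descriptions, and whether they differ from those of all genes was not tested. Adjusted p in the next paragraphs are from limma over all 15108 genes.

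Among genes of cytokines and alarmins that leave the cell through pores or lysis, and of their inhibitors, IL1A and IL1B rose with both isoforms. With deltaNp63beta, IL1A, IL1B and IL18 rose of 6 tested and none fell, where 21.8% of all genes rose and 19.5% fell. IL1A, IL1B and IL33 rose with deltaNp63alpha and none fell, where 8.13% of all genes rose and 6.37% fell. By limma, 0 of the 6 fell with either isoform also at an unadjusted p under 0.05. IL1B, a substrate of caspase-1, was at 4767, 3890 and 3976 in the deltaNp63beta libraries, at 1781, 1917 and 2639 in the deltaNp63alpha libraries and at 596.4, 617.2 and 692.9 in the vector libraries. It rose by 2.72 ± 0.13 with deltaNp63beta (adjusted p = 4.33e-08) and by 1.71 ± 0.13 with deltaNp63alpha (adjusted p = 7.29e-06), and the groups did not overlap. IL1A, which encodes a cytokine released on lysis, rose by 2.24 ± 0.10 (adjusted p = 2.17e-08) and by 1.56 ± 0.10 (adjusted p = 1.66e-06). IL18, the other classical caspase-1 substrate, was at 2608 ± 122 with deltaNp63beta, 2044 ± 178 with deltaNp63alpha and 1800 ± 10.9 with vector, a rise of 0.53 ± 0.06 with deltaNp63beta (adjusted p = 5.03e-05) and a difference of 0.18 ± 0.06 with deltaNp63alpha (adjusted p = 0.0886). IL33, an alarmin of epithelial cells, had the group order of NLRP3, at 91.0 ± 23.5 with deltaNp63beta, 265.2 ± 27.0 with deltaNp63alpha and 63.8 ± 4.98 with vector. It rose by 2.04 ± 0.19 with deltaNp63alpha (adjusted p = 2.84e-05), differed by 0.48 ± 0.19 with deltaNp63beta (adjusted p = 0.0665; 0.0206 without deltaNp63beta replicate 2), and was lower with deltaNp63beta than with deltaNp63alpha (-1.56 ± 0.19, adjusted p = 0.000107).

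Of the other gasdermin and membrane rupture genes, 1 rose with deltaNp63beta and 3 with deltaNp63alpha of 6 tested. None fell (by limma, 0 also at an unadjusted p under 0.05). The 1 that rose with deltaNp63beta was 16.7% of the list, where 21.8% of all genes rose and 19.5% fell. For deltaNp63alpha 8.13% of all genes rose and 6.37% fell. GSDMA, the gasdermin gene of skin, was at 6.23, 28.5 and 9.97 in the deltaNp63beta libraries, at 69.8, 89.7 and 93.0 in the deltaNp63alpha libraries and at 23.1, 13.1 and 20.1 in the vector libraries. It rose by 2.13 ± 0.47 with deltaNp63alpha (adjusted p = 0.0103) and was lower with deltaNp63beta than with deltaNp63alpha (-2.67 ± 0.47, adjusted p = 0.0012). With deltaNp63beta against vector it was not called (-0.54 ± 0.47, adjusted p = 0.389), but without deltaNp63beta replicate 2 it was lower (-1.11, adjusted p = 0.0381). NINJ1, which encodes the protein that ruptures the plasma membrane, rose to 890 ± 22.7 with deltaNp63beta and 969 ± 42.1 with deltaNp63alpha, against 747 ± 20.8 with vector (0.25 ± 0.06, adjusted p = 0.00658, and 0.37 ± 0.06, adjusted p = 0.00181). CHMP4B, a gene of membrane repair, rose by 0.15 ± 0.04 with deltaNp63alpha (adjusted p = 0.0398), but not without any 1 of the deltaNp63alpha or vector libraries (adjusted p between 0.0662 and 0.145). Nor was it called with equal totals, no filter, a replicate block or no trend and robust moderation (limma adjusted p between 0.0589 and 0.0924).

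Of the other sensors, 8 were tested. IFI16 and NLRX1 rose with deltaNp63beta and none fell, where 21.8% of all genes rose and 19.5% fell. MEFV and NOD2 fell with deltaNp63alpha and none rose, where 6.37% of all genes fell and 8.13% rose. Counts among 8 genes are too small to show whether the isoforms differ for sensors as a list. At an unadjusted limma p under 0.05, 1 was lower with deltaNp63beta and 1 higher with deltaNp63alpha. MEFV, which encodes pyrin, was at 75.3 ± 17.2 with deltaNp63beta, 26.1 ± 3.06 with deltaNp63alpha and 75.9 ± 9.50 with vector. It fell by 1.51 on the log2 scale with deltaNp63alpha (SE 0.23, adjusted p = 0.00125), and was higher with deltaNp63beta than with deltaNp63alpha (1.48 ± 0.23, adjusted p = 0.000622). IFI16, a DNA sensor gene related to AIM2, rose by 0.51 ± 0.06 with deltaNp63beta (adjusted p = 6.13e-05) and differed by 0.21 ± 0.06 with deltaNp63alpha (adjusted p = 0.0511; 0.0143 without deltaNp63alpha replicate 3). NOD2, a sensor of bacterial cell wall fragments, changed by -1.29 ± 0.32 with deltaNp63alpha (adjusted p = 0.0184), and the call was lost when deltaNp63alpha replicate 2, vector replicate 1 or vector replicate 2 was left out (adjusted p between 0.0621 and 0.0781). NLRX1, a mitochondrial relative, rose by 0.38 ± 0.12 with deltaNp63beta (adjusted p = 0.0297), and lost the call when replicate 2 or replicate 3 of either group was left out (adjusted p between 0.0843 and 0.115). The call was also lost with a replicate block and without trend and robust moderation (limma adjusted p = 0.0519 and 0.0641).

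Of the sensor partners and regulators, 6 rose and 3 fell with deltaNp63beta and 2 rose and 2 fell with deltaNp63alpha, of 15 tested. The 3 that fell with deltaNp63beta were 20.0% of the list, near the 19.5% of all genes, and the 6 that rose were 40.0%, where 21.8% of all genes did. With deltaNp63alpha each direction was 13.3% of the list, where 8.13% of all genes rose and 6.37% fell. TXNIP, a thioredoxin-binding protein gene linked to NLRP3, was at 7060 ± 90.6 with deltaNp63beta, 3966 ± 158 with deltaNp63alpha and 4072 ± 71.6 with vector. It rose by 0.79 ± 0.04 with deltaNp63beta (adjusted p = 5.53e-08). DPP9, which encodes a protease that restrains NLRP1, fell with deltaNp63beta (-0.56 ± 0.07, adjusted p = 8.7e-05). HSP90AB1, a chaperone gene, rose by 0.23 ± 0.03 with deltaNp63beta (adjusted p = 0.000115) and by 0.14 ± 0.03 with deltaNp63alpha (adjusted p = 0.0119), the second not called without deltaNp63alpha replicate 2 or vector replicate 3 (adjusted p = 0.0536 and 0.0616). Without trend and robust moderation the rise with deltaNp63alpha was also not called (limma adjusted p = 0.0981). NEK7, which encodes the kinase that NLRP3 needs, was singled out after its values were seen; it was at 2053 ± 226 with deltaNp63beta, 1938 ± 181 with deltaNp63alpha and 2267 ± 113 with vector and was not called in either comparison with vector.

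Of the other caspases, CASP9 and CASP10 rose with deltaNp63beta and none fell of 7 tested, and none was called with deltaNp63alpha by limma, 0 of 7 also at an unadjusted p under 0.05. The 2 that rose were 28.6% of the list, where 21.8% of all genes rose and 19.5% fell. For deltaNp63alpha 8.13% of all genes rose and 6.37% fell. CASP10, a caspase of death receptors, rose to 90.7 ± 21.2 with deltaNp63beta, against 34.3 ± 11.6 with vector (1.41 ± 0.28, adjusted p = 0.00202). CASP9, the apoptosome caspase, rose by 0.37 ± 0.11 (adjusted p = 0.0148), but not without deltaNp63beta replicate 3 or vector replicate 2 (adjusted p = 0.0536 and 0.0559). Among adaptors of other death pathways, 2 rose and 1 fell with deltaNp63beta and 1 rose with deltaNp63alpha, of 7 tested. As shares of the list, 28.6% rose and 14.3% fell with deltaNp63beta, where 21.8% and 19.5% of all genes did. For deltaNp63alpha 14.3% rose and none fell, where 8.13% of all genes rose and 6.37% fell. CFLAR, which encodes the caspase-8 inhibitor FLIP, rose with both isoforms (0.49 ± 0.06, adjusted p = 5.52e-05, and 0.29 ± 0.06, adjusted p = 0.00646), BID rose with deltaNp63beta (0.50 ± 0.11, adjusted p = 0.00417), and RIPK1, a kinase of necroptosis, fell with it (-0.47 ± 0.08, adjusted p = 0.000484).

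Of the genes that prime inflammasomes, 7 rose and 4 fell with deltaNp63beta and 2 rose and 2 fell with deltaNp63alpha, of 16 tested. With deltaNp63beta those that rose were 43.8% of the list and those that fell 25%, where 21.8% and 19.5% of all genes did. With deltaNp63alpha each direction was 12.5%, where 8.13% of all genes rose and 6.37% fell. The interferon regulatory factor genes IRF1 and IRF2 differed. IRF2 rose to 1104 ± 39.8 with deltaNp63beta, against 678.5 ± 82.1 with vector (0.71 ± 0.09, adjusted p = 6.58e-05), and was at 788 ± 44.1 with deltaNp63alpha (0.22 ± 0.09, adjusted p = 0.126; 0.0263 without vector replicate 2). IRF1 fell to 349 ± 41.6 with deltaNp63alpha, against 619 ± 105 with vector (-0.82 ± 0.13, adjusted p = 0.0015). It was at 475 ± 23.8 with deltaNp63beta (-0.37 ± 0.13, adjusted p = 0.0427), a call lost without any 1 of the deltaNp63beta libraries, deltaNp63alpha replicate 3, vector replicate 2 or vector replicate 3 (adjusted p then 0.054 to 0.152). That call was also lost with no filter and without trend and robust moderation (limma adjusted p = 0.0525 and 0.0782). TLR3, which encodes a receptor for double-stranded RNA, rose by 0.55 ± 0.10 with deltaNp63beta (adjusted p = 0.00124). TICAM1, its adaptor, rose with both isoforms (0.54 ± 0.07, adjusted p = 9.24e-05, and 0.35 ± 0.07, adjusted p = 0.00639).

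**Figure D3:**
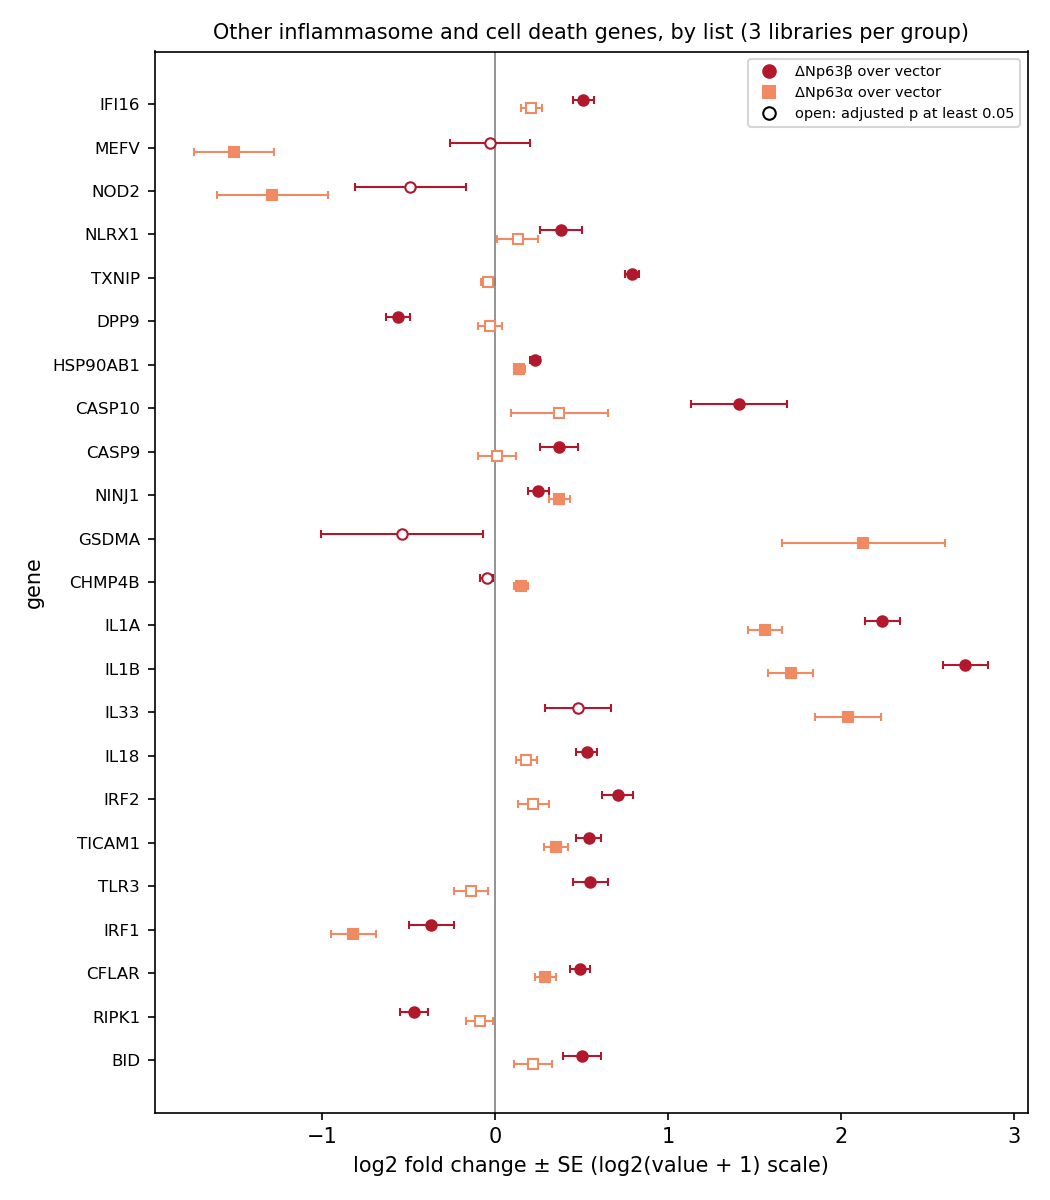
Log2 fold changes on the log2(value + 1) scale (x axis, bars are SE) of the named pathway genes that are not among the 10 (y axis, in the order of their lists) for deltaNp63beta over vector and deltaNp63alpha over vector, 3 libraries a group; open symbols had an adjusted p of at least 0.05. IL1B had the largest rise shown, 2.72 with deltaNp63beta, and GSDMA and IL33 rose by over 2 with deltaNp63alpha while their deltaNp63beta values were not called in the fit of all libraries.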

How the data were processed

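Poly(A) RNA of 9 MCF10A cultures was sequenced, 3 each with deltaNp63beta, deltaNp63alpha and vector. The deposited values are a signal, normalized estimated counts per gene. Per the submitters' processing notes the authors used kallisto 0.46.2, DESeq2 with no version and GRCh38; which step made the values is not given in the sources used here. Whole reads were not recovered, since only 60.1% to 63.5% of low values were whole multiples of a library's step within 0.1 step, so no interval for counting error was computed. Symbols matched 36387 of 41857 gene IDs, and positions, transcript lengths and 31-base words came from GENCODE release 29. PYDC5 had no row.

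Genes that reached 10 in 3 or more libraries were tested with limma 3.58.1 in R 4.3.3 on log2(value + 1), with trend and robust moderation, a coefficient per group over all 9 libraries and no block. Adding 1 understates the change of genes with low values. P-values set the differences between groups against the spread between replicate cultures of a group.

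The 10 genes, the pathway lists and the markers were chosen with earlier results of these data known. The text names all 10, up to 4 called genes of each pathway list by smallest adjusted p against vector, and the 3 closest profiles, except for some genes that are not reported here. Alternatives were median-of-ratios scaling, equal totals, no filter, a minimum of 50, a pseudocount of 0.1, only the 2 groups compared, a replicate block, no trend and robust moderation, and leaving out each library. Python 3.11.15 was used for reading and drawing.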

Additional observations from a re-analysis of the deposited data

How the results depend on the processing

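Across 17 alternatives, the counts of called members, of called pathway genes and of all called genes kept within 1.5 times their value in each comparison, and no called log2 difference of a member or named pathway gene changed sign. Of 1527 values of single genes under an alternative, 61 were no longer called and 13 became called. On leaving out each library, between 5 and 6 members were called for deltaNp63beta against vector, 4 in each case for deltaNp63alpha against vector and between 4 and 6 for deltaNp63beta against deltaNp63alpha. Counts in 1 direction moved more. The pathway genes called lower with deltaNp63alpha than with vector were 6, and 3 without deltaNp63alpha replicate 2 or without vector replicate 1. The genes called lower over the whole table for deltaNp63alpha against vector were 963, and 640 without vector replicate 3, 641 without vector replicate 2 and 642 without deltaNp63alpha replicate 3. Residuals of same-numbered libraries correlated between -0.12 and 0.08 and those of other pairs between -0.14 and 0.12. These values show no pairing by number, but with 3 libraries a group they cannot show that there was none. With the replicate number as a replicate block, members called were 5 for deltaNp63beta against vector, 4 for deltaNp63alpha against vector and 5 for deltaNp63beta against deltaNp63alpha, and GSDMD with deltaNp63beta was no longer called (adjusted p = 0.0537). GSDMD became called between deltaNp63beta and deltaNp63alpha without deltaNp63alpha replicate 1 or deltaNp63beta replicate 1 (0.73 and 0.74, adjusted p = 0.0465 and 0.0388), the cause not tested. The uncalled difference of NLRP1 between deltaNp63alpha and vector ran from -0.44 to 0.04. With no filter on low values, limma called AIM2, PYCARD and GSDMC in no comparison, which does not show that they did not differ.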

Other observations

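Among pathway genes below the filter on low values, some had a higher mean in 1 group than in the others, and none of these was tested. CASP14, a caspase of cornifying epidermis, was at 4.38, 2.69 and 2.19 in the deltaNp63beta libraries, at 0, 0.74 and 0 in the deltaNp63alpha libraries and at 0.36, 0 and 0 in the vector libraries. CARD18, which encodes a caspase-1 inhibitor with only a recruitment domain, was at 7.64, 3.64 and 1.53 in the deltaNp63beta libraries, at 4.81, 9.24 and 9.94 in the deltaNp63alpha libraries and at 0.447, 3.84 and 0.504 in the vector libraries. Its deltaNp63beta values overlapped those of both other groups. RIPK3, a kinase that necroptosis depends on, was listed at 0 in all 9 libraries, as was CASP12, a pseudogene in most people. All 4 were singled out after their values were seen.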
